A study of Mus musculus with 8 samples.

Results

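The endothelial cells recovered from small cell lung cancer allografts of 3 sites in the mouse numbered 80 among 36797 cells that passed the quality filters. They were chosen by their own transcripts. A cell needed 500 or more detected genes, and no more than 10% of its unique molecular identifiers (UMIs, each standing for 1 captured transcript) could be mitochondrial. The tumour transcripts eGFP and Mycl had to make up less than 0.2% of its UMIs, the sum of Cldn5, Pecam1, Cdh5 and Flt1 had to reach 3 UMIs, and the myeloid gene Tyrobp could have at most 1. The levels of these 7 genes are therefore given as a description and were not tested. Brain replicates 1 and 2 held 54 and 17 of the cells, liver replicates 1, 2 and 3 held 1, 1 and 2, and subcutaneous replicates 1, 2 and 3 held 5, 0 and 0.

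Endothelial cells line blood vessels, and their form differs between organs. In brain capillaries they are sealed by tight junctions and carry transporters for glucose, amino acids, lactate and organic anions, a state known as the blood-brain barrier and upheld by Wnt signalling through beta-catenin. Capillaries of skin, fat and muscle are more permeable and take up fatty acids, and the sinusoids of the liver have open pores and scavenger receptors.

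The tumours had been grown from the mouse line N2N1G, which models the neuroendocrine lung cancer of small cells. Cells were placed directly into brain (2 libraries) or under the skin of the flank (3 libraries) and liver tumours (3 libraries) were started through the tail vein, with the same cell number at each site. Tumours were taken after 3 weeks, healthy single cells were sorted by flow cytometry and their RNA was read by droplet 3' sequencing. The labels give neither genotype, strain nor age of the host mice, and no group without a tumour was analysed here, so all vessels described are those in or beside a tumour. Liver differed from both other sites in the route of injection as well as the organ, and these cannot be told apart. Nothing in the labels says that libraries came from separate animals, so p-values over libraries measure only the spread between these libraries.

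The libraries held 3742 to 6707 deposited cells, of which 3376 to 6406 were kept. Endothelial cells were shallow in brain, with a median of 2070 UMIs (range 820 to 60184) in replicate 1 and 1983 (684 to 10155) in replicate 2. The 5 subcutaneous cells were deeper, with a median of 6757 UMIs (5349 to 9017). Tumour cells had library medians of 7972 to 10542 UMIs. Summed over cells, endothelial UMIs came to 237963 and 41724 in the brain libraries and 34871 in subcutaneous replicate 1. A single cell of brain replicate 1 held 25.3% of that library's endothelial UMIs, and 11 of 71 brain cells with at least 5000 UMIs held 57.9% of those of both brain libraries. Of 882 barcodes found in more than 1 library, 4 belonged to endothelial cells, and 0 of these were endothelial in the other library too.

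The label was checked against 15 endothelial markers and against marker lists of 14 other cell types. The 15 markers include Cldn5, Pecam1, Cdh5 and Flt1, by which the cells were chosen. The tumour and macrophage lists hold eGFP, Mycl and Tyrobp, which the rule limits. The outcome is therefore partly set by the rule and is a description. In 76 of 80 cells the endothelial markers had more UMIs than any other list, apart from lymphatic endothelium, which was not counted as another type. The other 4 cells went against the label. A pair of cells in brain replicate 1 carried 354 and 376 UMIs of pericyte and smooth muscle markers against 20 and 12 of endothelial markers. Both met the rule through Flt1 alone, with 6 and 3 UMIs, and their Rgs5, a pericyte gene, had 139 and 140. A cell in brain replicate 2 had 47 UMIs of fibroblast markers, 31 of them from Dcn, against 3 endothelial ones. The only endothelial cell of liver replicate 2 had 76 UMIs of macrophage markers, including 27 of C1qa, against 3 endothelial ones. Without these 4 cells the counts were 52 and 16 in brain, 1, 0 and 2 in liver and 5, 0 and 0 in subcutaneous libraries. Doublets were not called, and their part in these cells was not tested.

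**Figure D1:**
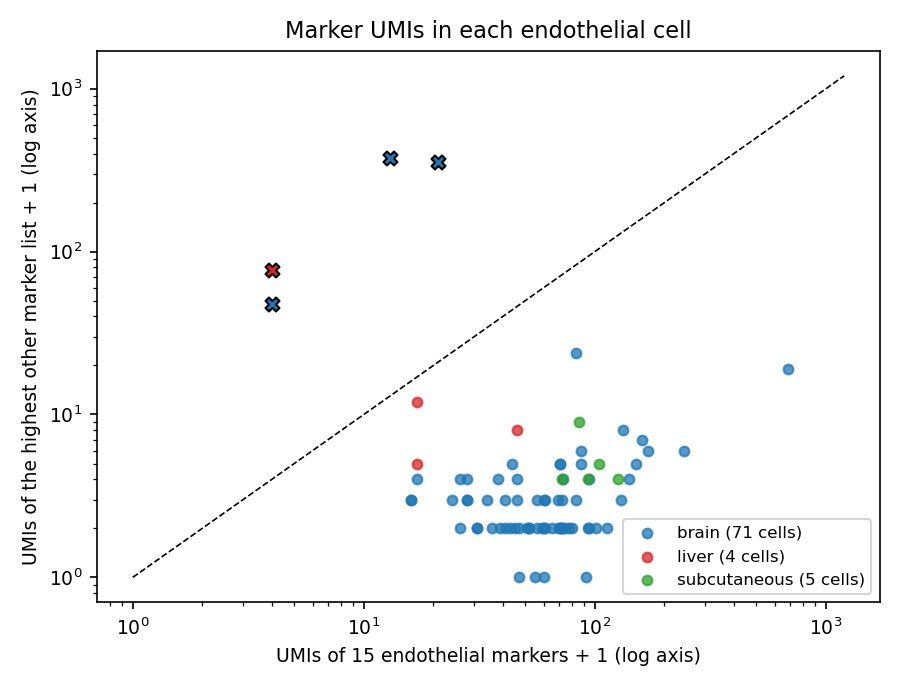
Each point is an endothelial cell, with the UMIs of 15 endothelial markers plus 1 on the x axis and the UMIs of the highest list of another cell type plus 1 on the y axis, both logarithmic; colours give the site and the dashed line marks equality. The 4 crosses above the line are the cells led by markers of another type, and the other 76 cells lie below it.

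Cells near the rule's limits were counted. Exactly 3 UMIs of the 4 rule genes were found in 4 of the 80 cells, 3 of which were among the cells led by another type. Just outside, 2 cells had exactly 2 such UMIs. No cell was lost to the Tyrobp limit at 2 or 3 UMIs, and 8 cells had exactly 1. Another 15 cells, 11 of them in brain, met every condition but the limit on eGFP and Mycl, and 7 of the 15 were led by markers of another type. Outside the rule, 5 cells had at least 10 endothelial marker UMIs and were led by them.

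Most lists of other cell types had few transcripts in the summed endothelial UMIs, but pericyte markers in brain replicate 1 did not. Tumour markers came to 466 and 575 CPM in the brain libraries (CPM is a gene's UMIs scaled to a common library total) and 401 in subcutaneous replicate 1. Macrophage and microglial markers came to 214, 168 and 28.7 CPM. T and NK cell and B cell markers were at 0 in all 3 libraries. Pericyte and smooth muscle markers came to 3085 and 815 CPM in brain, beside 18057 and 21978 CPM of endothelial markers, and to 0 in the subcutaneous cells. Nearly all of those in brain replicate 1 lay in the pair of cells named above. Fibroblast markers came to 303 and 1126 CPM in brain, in 2 cells and 1 cell, and to 0 in the subcutaneous cells. The 17 UMIs of the astrocyte list in the subcutaneous cells came from 1 gene of 7, and its defining genes Gfap and Aqp4 were at 0.

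Endothelial cells were a larger share of the kept cells in brain than at the other sites. The share was 1.60% (exact 95% binomial interval 1.20 to 2.08) in brain replicate 1 and 0.385% (0.225 to 0.616) in brain replicate 2. It was 0.0240%, 0.0230% and 0.0416% in the liver libraries. Subcutaneous replicate 1 had 0.113% (0.0367 to 0.264), while 0 of 6406 and 0 of 4843 cells in replicates 2 and 3 allow shares of up to 0.0468% and 0.0619% at 3 cells. These intervals and limits cover counting error only. Both brain libraries lay above all 6 others, and the brain libraries themselves differed by more than their intervals.

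Brain libraries averaged 0.992% ± 0.859 (SD, n = 2). Liver libraries averaged 0.0295% ± 0.0105 (SD, n = 3), and those of the subcutis 0.0377% ± 0.0653 (SD, n = 3). The sites differed at p = 0.0357 in an exact permutation test that went through all 560 ways of assigning libraries to sites. In two-sided exact permutation tests, brain exceeded liver by 0.963 and subcutis by 0.955 percentage points, each at p = 0.1 (0.15 adjusted over 3 pairs by Benjamini-Hochberg), the smallest value groups of 2 and 3 allow. Liver and subcutis differed by -0.00818 points (exact permutation p = 1). With 7 libraries, the exact permutation p was 0.0762 to 0.143 after leaving out any library other than subcutaneous replicate 1, and 0.00952 without that library. Among host cells alone, that is kept cells under the limit on eGFP and Mycl, endothelial cells were 5.64% and 4.84% in brain, 1.75%, 0.595% and 2.22% in liver and 1.83%, 0% and 0% in subcutis (exact permutation p = 0.0107). The flow sort can set all of these shares, and its part was not tested. So can the rule, because its gene Cldn5 had 6627 and 8173 CPM in brain and 201 CPM in subcutaneous replicate 1. Shares by a rule without Cldn5 were not counted.

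**Figure D2:**
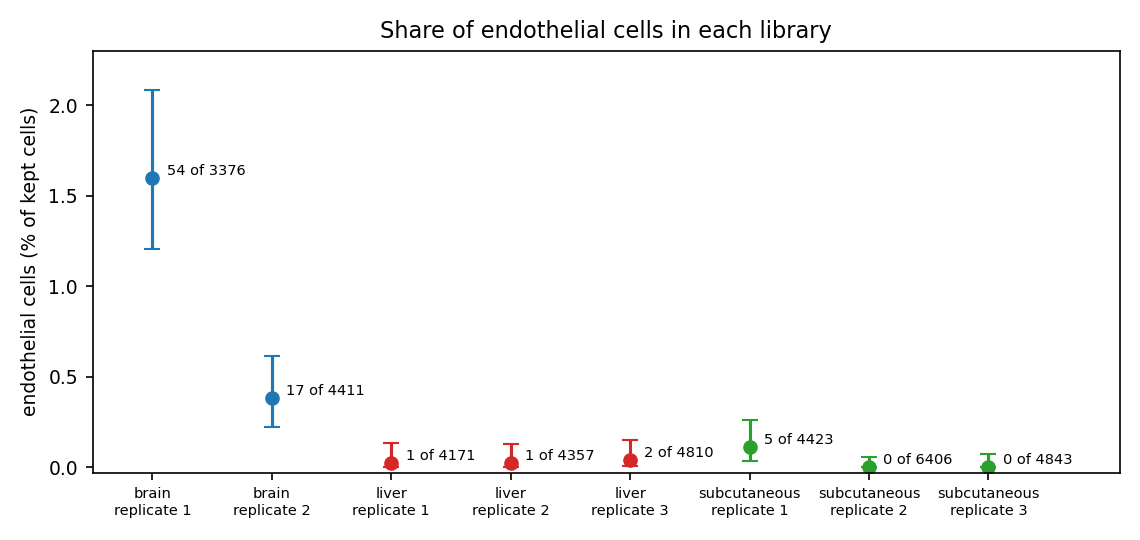
Share of endothelial cells among kept cells (y axis, percent) in each of the 8 libraries (x axis), with exact 95% binomial intervals and the cell counts beside each point. The brain libraries, at 1.60% and 0.385%, lie above the other 6, of which the highest is subcutaneous replicate 1 at 0.113%.

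Between the brain libraries, Pearson's r of log2(CPM + 10) was 0.817 over 1521 genes with at least 30 UMIs. It is a description across genes, which are not independent, and no r with the subcutaneous library was set beside it. Gene expression was compared between the 71 brain cells and the 5 cells of subcutaneous replicate 1, since liver held too few cells to be summed. A gene was called higher at a site when its CPM in subcutaneous replicate 1 and in each brain library differed by at least 4 times in the same direction, with 0 UMIs counted as 3. A gene with 0 UMIs in the subcutaneous cells could thus be called only at 4 times 86.0 CPM or more in both brain libraries. Of 3365 genes with at least 15 UMIs, 65 (1.93%) were higher in brain and 54 (1.6%) were higher in the subcutaneous cells. This size rule has no test and was set after the data were seen. edgeR's quasi-likelihood test of the same 3 libraries, added for the same reason, assumes that the lone subcutaneous library varies like the brain libraries. It called 88 of 1004 genes (8.76%) higher in brain and 67 (6.67%) higher in the subcutaneous library at a Benjamini-Hochberg adjusted p under 0.05. DESeq2 called 15 and 3 among the 547 genes to which it gave an adjusted p. In the following, adjusted p-values are those of edgeR, and fold values are pooled brain UMIs over those of subcutaneous replicate 1 or the inverse, with exact 95% counting intervals. A gene low at 1 site could pass edgeR's filter through the other site alone, and its adjusted p then does not support the difference.

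Most of the listed genes that were higher in brain belonged to the 32 blood-brain barrier and brain capillary genes. Its summed level was 24672 and 37101 CPM in the brain libraries and 1549 CPM in subcutaneous replicate 1, that is 2.47%, 3.71% and 0.155% of all UMIs. Of 31 members with enough UMIs for the size rule, 15 were higher in brain and 0 in the subcutaneous cells, and 22 had 0 UMIs there. Over all genes compared, 1.93% were higher in brain. The median log2 ratio was 2.32 with such genes at their bound, beside -0.06 over all genes compared. edgeR called 22 members higher in brain, among 24 that passed its filter on low counts. Since most passed through brain alone, that count describes the list and does not support it, and no p-value is given for a gene with 0 UMIs in the subcutaneous library. The list was chosen with earlier results of these data known. DESeq2 called 8 members higher in brain.

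Bsg encodes basigin, the partner that carries monocarboxylate transporters to the membrane. It had 9157 and 13733 CPM in the brain libraries and 602 in subcutaneous replicate 1, a 16.3-fold difference (10.7 to 26.4, adjusted p = 1.79e-05). All 71 brain cells and 5 subcutaneous cells had it, and tumour cells had it too, at 408 to 973 CPM in the same 3 libraries. Slc2a1, the glucose transporter GLUT1, had 2042 and 2085 CPM in brain and 0 UMIs in the subcutaneous cells, at least 23.8-fold higher in brain. Itm2a, a membrane protein gene long used to mark brain endothelium, had 2156 and 3691 CPM against 0 UMIs, at least 27.7-fold higher. Both brain libraries lay far above the subcutaneous one for each of these genes.

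The organic anion transporters Slco1c1, which also carries thyroid hormone, and Slco1a4 followed the same order. Slco1c1 had 1042 and 1702 CPM in brain and 0 UMIs in the subcutaneous cells, at least 13.3-fold higher. Slco1a4 had 824 and 1438 CPM and 0 UMIs, at least 10.6-fold higher. Slc16a1, the lactate transporter MCT1, had 761 and 1055 CPM and 0 UMIs, at least 9.35-fold higher. Pglyrp1, a peptidoglycan recognition protein gene, had 1332 and 2301 CPM, and 1 UMI (28.7 CPM) in the subcutaneous cells, a ratio of 51.5 with a wide interval (9.19 to 2039).

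Other barrier genes called by the size rule were chosen for naming after their values were seen. Slc7a5, the light chain of the large neutral amino acid transporter, had 555 and 1126 CPM in brain and 1 UMI in the subcutaneous cells (ratio 22.3, 3.95 to 886). Abcb1a, the drug efflux pump P-glycoprotein, had 324 and 383 CPM and 1 UMI (ratio 11.6, 2.03 to 463). Pltp, Car4, Spock2, Slc38a5, Slc6a6 and Lsr completed the list, with 4.45-fold or more in every case. Mfsd2a, the transporter of omega-3 lysolipids that holds down transcytosis, was not called: it had 240 and 192 CPM in brain and 0 UMIs in the subcutaneous cells, at least 2.70-fold higher, where tumour cells of the 3 libraries had 44.3 to 75.3 CPM. At these brain levels the size rule could not call it, since 3 UMIs are 86.0 CPM in the subcutaneous cells.

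The upstream regions of 4 genes are shown: Slco1c1, Slco1a4 and Mfsd2a are barrier transporters with 0 UMIs in the subcutaneous cells, and Cldn5 is the gene of the rule whose level differed most. They are the 250 bases before the RefSeq start site, on the gene's strand, in GRCm38.p6. A search on both strands took in 3 motifs: ACAGGAAG (ETS factors), ATCAAAG (TCF and LEF factors) and ACGTG (the core of the hypoxia response element). Capitals mark ACGTG.
Cldn5 (chr16:18776597-18776846, plus strand): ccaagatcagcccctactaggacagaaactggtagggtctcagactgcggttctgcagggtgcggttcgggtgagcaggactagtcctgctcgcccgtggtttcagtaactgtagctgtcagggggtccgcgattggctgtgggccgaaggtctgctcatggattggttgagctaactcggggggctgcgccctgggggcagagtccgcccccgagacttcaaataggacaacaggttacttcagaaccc
Slco1c1 (chr6:141524104-141524353, plus strand): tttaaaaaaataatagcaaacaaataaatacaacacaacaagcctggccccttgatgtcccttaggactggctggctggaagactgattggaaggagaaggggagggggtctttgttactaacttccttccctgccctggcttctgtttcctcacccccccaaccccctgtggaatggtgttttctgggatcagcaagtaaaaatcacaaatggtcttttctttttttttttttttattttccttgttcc
Slco1a4 (chr6:141856221-141856470, minus strand): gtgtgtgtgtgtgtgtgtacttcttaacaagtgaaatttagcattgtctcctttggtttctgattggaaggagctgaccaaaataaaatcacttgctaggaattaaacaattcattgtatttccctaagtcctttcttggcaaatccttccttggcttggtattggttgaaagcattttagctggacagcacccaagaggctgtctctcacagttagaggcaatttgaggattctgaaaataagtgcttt
Mfsd2a (chr4:122961189-122961438, minus strand): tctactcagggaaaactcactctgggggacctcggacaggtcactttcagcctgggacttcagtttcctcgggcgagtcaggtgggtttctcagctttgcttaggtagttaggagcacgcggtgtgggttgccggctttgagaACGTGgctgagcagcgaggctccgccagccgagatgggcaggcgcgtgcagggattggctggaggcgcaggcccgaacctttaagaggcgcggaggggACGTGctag
Of these 4 regions, only that of Mfsd2a holds any of the 3 motifs. Of the 32 barrier genes, 23 matched the RefSeq table, and ACGTG lay upstream of 6 of them (26.1%), ATCAAAG of 1 (4.35%) and ACAGGAAG of 0. Among all 27025 promoters of the same length the shares were 16.6%, 3.23% and 2.79%. Upstream of the 51 matched genes called higher in brain, the shares were 15.7%, 3.92% and 1.96%. A match is a description of letters in this window.

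The barrier transcripts were spread over most brain cells. Of 71 brain cells, 56 had UMIs of all 3 of Slco1a4, Slco1c1 and Itm2a, 8 had 2 of them, 3 had 1 and 4 had 0. Of the 4 cells without any, 2 were the pericyte-marked cells, and of the 3 cells with 1, 1 was the fibroblast-marked cell. Slco1a4 was detected in 83.3% and 88.2% of the brain cells and in 0 of 5 subcutaneous cells. After thinning each cell to 1000 UMIs, which left out 3 and 4 brain cells, the shares were 68.6% and 61.5%. In tumour cells of the same libraries, which should lack the gene, they were 0.5% and 0.1% unthinned (1000 cells each, median depths 8036 and 8266 UMIs) and 0.101% and 0% thinned. Slc2a1 was detected in 92.6% and 94.1% of brain endothelial cells and, thinned, in 86.3% and 76.9%, against 5.73% and 6.22% of thinned tumour cells.

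Per cell, the barrier list took a median of 4.03% of UMIs in brain replicate 1 (0.0464 to 6.46) and 5.16% in brain replicate 2 (0.607 to 7.04). It took 0.122% in the subcutaneous cells (0.0952 to 0.266) and 0.0364% to 0.528% in the 4 liver cells. The subcutaneous cells overlapped the lowest brain cells only. Without the 4 cells led by another type, the lowest brain cell was at 0.103%.

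**Figure D3:**
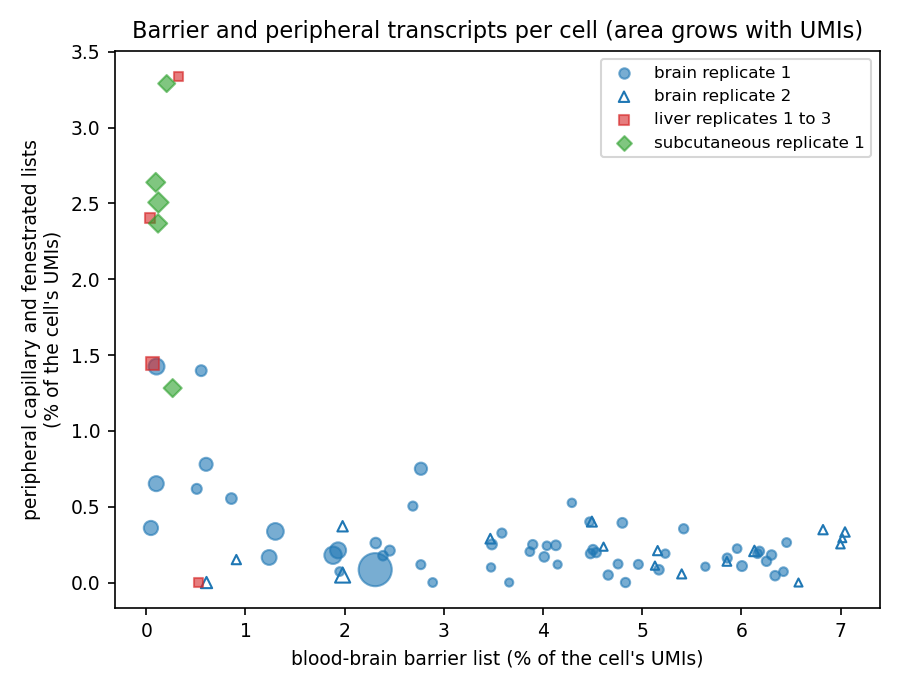
Each point is an endothelial cell, with the share of its UMIs from the blood-brain barrier list on the x axis and from the peripheral capillary and fenestrated lists together on the y axis, both in percent; symbols give the library and the area grows with the cell's UMIs. Brain cells extend to 7.04% on the x axis, while the 5 subcutaneous cells stand between 1.28% and 3.29% on the y axis at no more than 0.266% on the x axis.

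The summed level of genes of peripheral and fenestrated capillaries was higher in the subcutaneous library than in either brain library. The list of 16 genes of peripheral capillaries and fatty acid uptake summed to 941 and 623 CPM in brain and 10697 CPM in subcutaneous replicate 1. Of 9 members compared, 6 were higher in the subcutaneous cells and 0 in brain, with a median log2 ratio of -3.53, beside 1.6% called in that direction and a median of -0.06 over all genes compared. edgeR called the same 6 and DESeq2 called 1 of them, Fabp4, higher in the subcutaneous library. Cd36, Cd300lg, Aqp1 and Fabp4 had 0 to 6 UMIs in the brain cells and were compared through the subcutaneous cells alone, so these counts describe the list and do not support it. The fenestrated and permeable list of 12 genes summed to 2240, 1150 and 13335 CPM, and 5 of 11 compared were higher in the subcutaneous cells and 0 in brain (median -1.89). edgeR called 5 of 11 and DESeq2 called 0, and the brain UMIs of Plvap, Plpp3, Igfbp3 and Esm1 all lay in brain replicate 1.

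Fabp4, a fatty acid carrier of capillary endothelium, had 25.2 and 0 CPM in the brain libraries, all 6 UMIs in 1 cell, and 4359 CPM in subcutaneous replicate 1, where each of the 5 cells had 3 to 75 UMIs. The ratio was 203 (91.2 to 562). Gpihbp1, which holds lipoprotein lipase on the capillary surface, had 84.0, 0 and 1778 CPM, a ratio of 24.9 (14.8 to 43.5). Rgcc, a cell cycle regulator gene, had 113, 264 and 1520 CPM, a ratio of 11.2 (7.24 to 17.4, adjusted p = 3.01e-10). The water channel gene Aqp1 had 8.40, 0 and 803 CPM, and Cd36 and Cd300lg, a fatty acid receptor and a capillary mucin receptor, had 0 UMIs in all 71 brain cells against 17 and 18 in the subcutaneous ones. Fabp5, another fatty acid carrier, was not called, with 366, 47.9 and 401 CPM (ratio 0.793, 0.448 to 1.51), and 59.6% of its brain UMIs lay in 1 cell.

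Plvap, which forms the diaphragms of fenestrae and is used as a sign of a leaky barrier, had 33.6 and 0 CPM in brain and 2982 CPM in subcutaneous replicate 1, a ratio of 104 (51.0 to 248). All 5 subcutaneous cells had 6 to 26 Plvap UMIs. It was detected in 7.41% and 0% of brain endothelial cells, at median depths of 2070 and 1983 UMIs. Tumour cells of those libraries, at 8036 and 8266 UMIs, had it in 8.3% and 8.9%, and at 16.6 and 17.8 CPM. Other host cells had 1.12 and 8.47 CPM. After thinning, 0% of the brain endothelial cells and 1.41% and 1.71% of the tumour cells had a Plvap UMI, too few to compare. Rbp7, a retinol-binding protein gene outside the lists and named after its values were seen, had 25.2, 0 and 4674 CPM, a ratio of 218 (98.0 to 602). In GRCm38 Plvap lies at chr8:71497765-71511752, Fabp4 at chr3:10204088-10208576 and Rbp7 at chr4:149449687-149454978, all protein-coding genes on the minus strand. Igfbp3, an insulin-like growth factor carrier, had 950, 0 and 4846 CPM, a ratio of 6.0 (4.88 to 7.35), but edgeR did not call it (adjusted p = 0.760), and the brain libraries differed widely. Cavin1 and Cavin2, coat genes of caveolae, had ratios near 1: Cavin1 had 252, 336 and 258 CPM, and Cavin2 had 155, 240 and 172 CPM.

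Most general endothelial genes were called at neither site. The size rule compared 26 pan-endothelial genes that the cell rule had not used. Of these, 0 were higher in brain and 2, Plvap and Ecscr, in the subcutaneous cells, with a median log2 ratio of -0.44. Over all genes compared, the shares were 1.93% and 1.6% and the median was -0.06, so most genes of any kind were called at neither site. edgeR called 5 of 21 tested: Ly6c1 higher in brain, and Emcn, Kdr, Plvap and Ecscr higher in the subcutaneous library, beside 8.76% and 6.67% over all genes tested. Emcn, a sialomucin of capillary and venous endothelium, had 273, 240 and 1004 CPM, 3.74-fold higher in subcutis (2.43 to 5.66, log2 difference -1.78, SE 0.457, adjusted p = 0.00161). Ly6c1, a capillary surface antigen gene, had 4038 and 5776 CPM in brain and 1491 CPM in subcutis, a ratio of 2.88 (2.18 to 3.88, adjusted p = 0.0331). Ctla2a, a protease inhibitor gene, had 3097, 1869 and 2896 CPM (ratio 1.01, 0.817 to 1.25). Ramp2, part of the adrenomedullin receptor, had 1235, 1678 and 1090 CPM (ratio 1.19, 0.854 to 1.72), and Ly6a had 861, 1630 and 1176 CPM (ratio 0.830, 0.596 to 1.18). The intervals of the last 3 ratios include 1, and edgeR called none of these genes.

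The genes of the rule itself followed no single order. Cldn5, the main claudin of endothelial tight junctions, had 6627 and 8173 CPM in brain and 201 CPM in subcutaneous replicate 1, where 2 of 5 cells had it. It was detected in 96.3% and 94.1% of brain cells, against 1.8% and 0.3% of tumour cells. Pecam1, an adhesion molecule of endothelial contacts, had 462, 455 and 1061 CPM. Cdh5, the cadherin of endothelial junctions, had 269, 288 and 746 CPM, and Flt1, a receptor for vascular endothelial growth factor (VEGF), had 983, 1174 and 1061 CPM. The subcutaneous cells thus met the rule mainly by Pecam1, Cdh5 and Flt1, and the brain cells mainly by Cldn5.

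Of 10 tight and adherens junction genes compared, Lsr and Tjp1 were higher in brain and 0 were higher in the subcutaneous cells. Over all genes compared, 1.93% and 1.6% were. Lsr, a receptor at tricellular junctions, had 361 and 503 CPM and 0 UMIs, at least 4.45-fold higher in brain. Tjp1, the scaffold ZO-1, had 151 and 144 CPM and 1 UMI, a ratio of 5.24 whose interval includes 1 (0.890 to 212). It did not pass edgeR's filter, and 45.2% of its brain UMIs lay in 1 cell. Esam, an adhesion molecule, had 1235, 959 and 1176 CPM (ratio 1.02, 0.733 to 1.44).

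Among VEGF and angiopoietin receptors and ligands, 0 of 7 genes compared passed the size rule. Only 1.93% (brain) and 1.6% (subcutis) of all genes compared passed it, so this 0 says nothing about the members. Kdr, the main VEGF receptor, had 286 and 216 CPM in brain and 832 CPM in subcutis, 3.02-fold higher there (1.90 to 4.69, adjusted p = 0.0167). Ptprb, the phosphatase that restrains the angiopoietin receptor, had 307, 383 and 516 CPM (ratio 0.616, 0.369 to 1.09), and the receptor kinase gene Tie1 had 206, 168 and 201 CPM (ratio 0.997, 0.454 to 2.59).

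**Figure D4:**
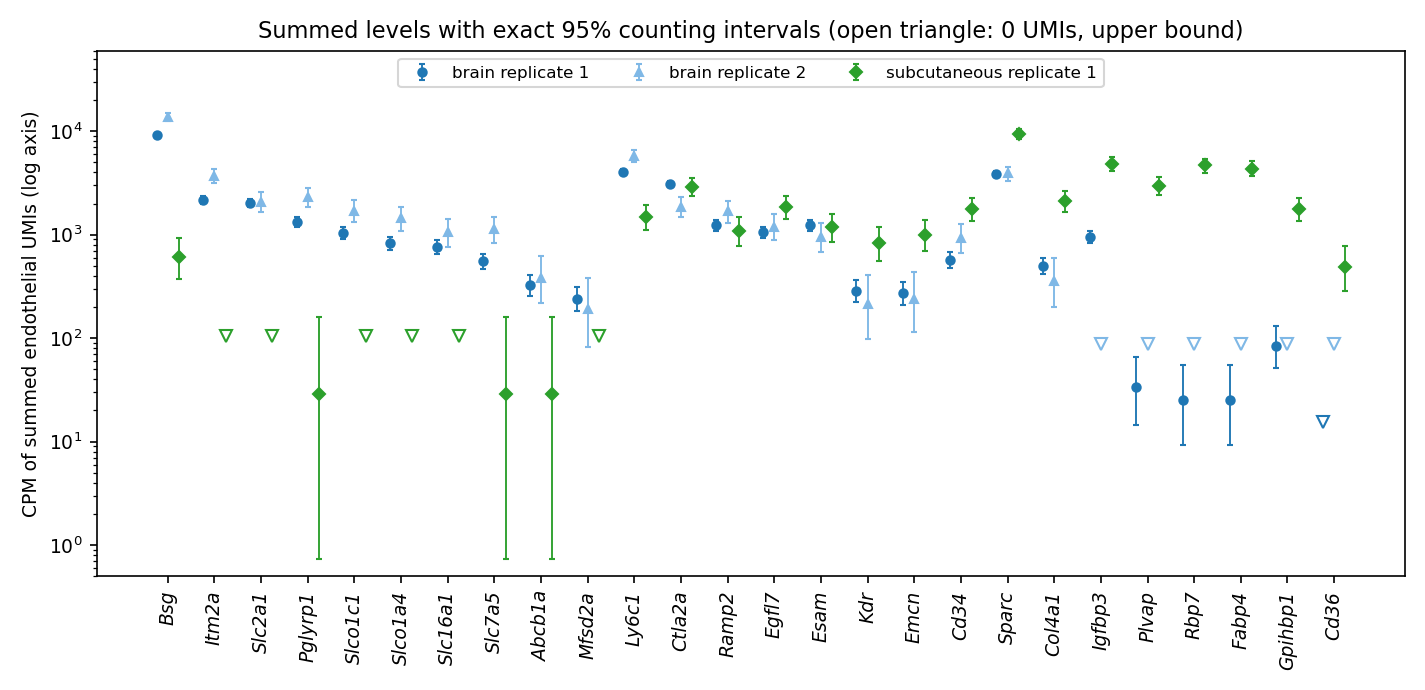
CPM of summed endothelial UMIs (y axis, logarithmic) for 26 genes (x axis) in brain replicates 1 and 2 and subcutaneous replicate 1, with exact 95% counting intervals; an open triangle marks 0 UMIs at its upper bound. Barrier genes on the left are higher in both brain libraries. Of the general endothelial genes in the middle, Ly6c1 is higher in brain and Kdr and Emcn are higher in subcutaneous replicate 1. Fabp4, Plvap and Rbp7 on the right are at or below 33.6 CPM in brain.

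Of 10 Wnt and beta-catenin genes compared, 0 passed the size rule in either direction, and 6 had 0 UMIs in the subcutaneous cells. With 1.93% and 1.6% called over all genes compared, 0 of 10 says nothing about the members. Lef1, a transcription factor of the pathway, had 139 and 192 CPM in brain and 0 UMIs in the subcutaneous cells, at least 1.70-fold higher. Nkd1, an inhibitor induced by the pathway, had 126 and 144 CPM and 0 UMIs, at least 1.5-fold higher. Both genes lay in brain below 4 times the 86.0 CPM that 3 UMIs give in the subcutaneous cells. The size rule could therefore not call them higher in brain. Tumour cells had 25.3 to 31.7 CPM of either gene. Ctnnb1, encoding beta-catenin, had 248, 551 and 774 CPM (ratio 0.379, 0.242 to 0.609, adjusted p = 0.168).

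The basement membrane list had a higher summed level in the subcutaneous library, while most of its members were not called. The list of 16 summed to 7758 and 7526 CPM in brain and 18898 CPM in subcutis. Of 15 genes compared, 5 were higher in the subcutaneous cells and 0 in brain (median log2 ratio -1.96). Over all genes compared, 1.6% were higher in the subcutaneous cells and the median was -0.06. edgeR called 5 of 11 tested, 1 in cells with 0 Tyrobp UMIs, and DESeq2 called 0. Col4a1, a chain of type IV collagen, had 500, 360 and 2122 CPM, 4.43-fold higher in subcutis (3.29 to 5.93, adjusted p = 3.93e-05). Hspg2, the proteoglycan perlecan, had 63.0, 95.9 and 717 CPM, 10.6-fold higher (5.58 to 20.3), and Col18a1, the precursor of endostatin, was 5.79-fold higher (3.36 to 9.86). Sparc, a matrix protein that binds collagen, had 3854, 3907 and 9406 CPM, 2.44-fold higher (2.15 to 2.76), which edgeR did not call (adjusted p = 0.221). Its relative Sparcl1 had 1320, 1558 and 1348 CPM (ratio 1.01).

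The list of 22 tip cell and angiogenic genes was split. Of 16 compared, Apln was higher in brain, and Rgcc, Ednrb, Ramp3 and Esm1 were higher in the subcutaneous cells. The shares over all genes compared were 1.93% and 1.6%. Apln, the ligand of the apelin receptor, had 206 and 336 CPM in brain and 1 UMI in subcutis (ratio 7.85, 1.36 to 315). Yet its brain UMIs lay in 7 cells and 61.9% of them in 1, and all 14 of brain replicate 2 lay in 1 cell. Esm1, a proteoglycan of tip cells, had 122, 0 and 1749 CPM (16.9-fold higher in subcutis, 10.7 to 27.2). All 29 of its brain UMIs were in 1 cell, whereas 3 of 5 subcutaneous cells had 5, 45 and 11. Aplnr, the apelin receptor, had 155, 168 and 172 CPM.

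Arterial, Notch, and TGF-beta and BMP genes gave 0 calls of either direction by size among 6, 8 and 9 compared. Beside 1.93% and 1.6% over all genes compared, these counts say nothing about the members. Hes1, a Notch target, had 538, 551 and 746 CPM, Id1 and Id3, targets of BMP signalling, had 1941, 1126 and 1405 CPM and 1689, 1965 and 2237 CPM, and Eng, a co-receptor of that pathway, had 643, 647 and 1090 CPM. None of the 4 passed edgeR's test. Mgp, a matrix inhibitor of BMP, had 996 and 95.9 CPM in brain and 0 UMIs in subcutis, with 47.7% of its brain UMIs in 1 cell. Of the lymphatic list only Flt4 was compared, at 63.0, 47.9 and 28.7 CPM, and Prox1, Lyve1 and Pdpn did not exceed 1 UMI in any of the 3 libraries.

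Of 12 venous genes compared, Slc38a5 and Icam1 were higher in brain and Tspan7 in subcutis, beside 1.93% and 1.6% over all genes compared. Icam1, a receptor for leukocytes, had 286, 144 and 28.7 CPM (ratio 9.23, 1.61 to 369, adjusted p = 0.0581), with 75.7% of its brain UMIs in 1 cell, and it was the only call among 13 genes of leukocyte adhesion and inflammation. Slc38a5, a glutamine transporter, had 635 and 503 CPM in brain and 0 UMIs in subcutis. It was found in 24 brain cells, with 41.3% of its brain UMIs in 1 cell. Tmsb10, an actin-binding peptide gene, had 8022, 6375 and 1950 CPM (ratio 3.99, 3.13 to 5.15, adjusted p = 0.0278), and tumour cells had 3094 to 3839 CPM of it. Lrg1, a glycoprotein of activated venules, had 483, 0 and 832 CPM, with 43.5% of its brain UMIs in 1 cell.

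Of 25 interferon and MHC class I genes compared, 0 passed the size rule in either direction, with a median log2 ratio of 0.06. The count is near the 1.93% and 1.6% called over all genes compared. B2m, the light chain of MHC class I, had 3085, 3260 and 3040 CPM (ratio 1.02, 0.836 to 1.26), and H2-D1, a heavy chain, had 1689, 1606 and 1950 CPM (ratio 0.860, 0.666 to 1.13). Ifitm3, an antiviral membrane protein gene, had 3438, 2469 and 4043 CPM (ratio 0.814, 0.681 to 0.979, adjusted p = 0.822).

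The calls among immediate early genes depended on the test. They stand beside 1.93% higher in brain by size over all genes compared, and the share by edgeR given above. The list of 15 summed to 11817 and 5464 CPM in brain and 2438 CPM in subcutis, and edgeR called 9 of 11 tested higher in brain, while the size rule called 1 of 14, Ier3. Fos and Jun, the partners of the AP-1 factor, had 2261, 719 and 430 CPM and 1706, 695 and 201 CPM. Members low in the subcutaneous library, Jun and Ier3 (1 UMI there) among them, passed edgeR's filter through brain alone. The edgeR count therefore describes the list and does not support it. edgeR called 2 of these genes with library totals in place of TMM factors, 2 with no filter, 2 at 30 UMIs a gene, 1 in cells with 0 Tyrobp UMIs and 1 without the deepest cell. DESeq2 called 0. Junb had 1063, 768 and 346 CPM in tumour cells of the 3 libraries and Fos had 242, 125 and 80.8 CPM, in the order of the endothelial values, while Jun had 342, 205 and 399 CPM. The part of this in the calls was not tested. Klf2, a factor induced by blood flow, had 2488, 1079 and 516 CPM (ratio 4.41, 2.77 to 7.49). Klf4 had 752, 288 and 86.0 CPM and also passed the filter through brain alone.

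Slc2a1 was the only call among 9 hypoxia and glycolysis genes by size. For this list and the next, the shares over all genes compared were 1.93% higher in brain and 1.6% higher in subcutis. Ldha, lactate dehydrogenase, had 773, 1750 and 688 CPM (ratio 1.34, 0.877 to 2.12). Ndrg1, a gene induced by low oxygen, had 189, 503 and 57.4 CPM and passed edgeR's filter through brain alone. Among 8 proliferation genes, Birc5, a mitotic survivin gene, was higher in the subcutaneous cells with 50.4, 0 and 516 CPM. Of its 18 subcutaneous UMIs, 17 were in 1 cell, and Mki67 and Top2a had 0 UMIs in all 5 cells.

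The genes that most set brain endothelial cells apart from all other kept cells of their libraries were read by a fixed rule, which ranks by the lower of both brain ratios. Because the cells were chosen by Cldn5 and its companions, this is a description. The first 12 were Srarp, Tmem252, Degs2, Slc22a8, Adgrf5, Ptprb, Hspa12b, Cldn5, Wfdc1, Itih5, Slco1a4 and AU021092. Slc22a8, an organic anion transporter of the barrier, had 210 and 479 CPM in brain endothelial cells against 0.306 and 0.0748 CPM in the other kept cells. Adgrf5 and Ptprb had 315 and 516 CPM in subcutaneous replicate 1 as well, while 7 of the 12, Srarp, Tmem252, Degs2, Slc22a8, Wfdc1, Itih5 and Slco1a4, had 0 UMIs there. Wfdc1, a secreted protease inhibitor-like gene, had 433 and 455 CPM and was found in 38 of 54 and 13 of 17 brain cells.

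A few brain cells departed from the others, and they were chosen after their values were seen. The cell of most UMIs, 60184 in brain replicate 1, had 35 of the 38 Ackr1 UMIs of all brain cells, a chemokine-binding receptor of venules, together with 56 UMIs of Icam1, 34 of Vwf and 19 of Vcam1. Its barrier list still took 2.31% of its UMIs. A cell of 11656 UMIs in the same library had 0 UMIs of Slco1a4, Slco1c1, Itm2a and Slc2a1. It had 87 of Igfbp3, 39 of Apln, 29 of Esm1, 15 of Angpt2 and 11 of Gpihbp1, with 1.42% of UMIs in the peripheral and fenestrated lists, and 10 of Emcn. A pair of further cells of 6800 and 3794 UMIs had 29 and 37 Igfbp3 UMIs, 3 Plvap UMIs each and 0.603% and 0.554% of UMIs in the barrier list. All 226 Igfbp3 UMIs of brain came from 9 cells of brain replicate 1. In brain replicate 2 a cell of 3234 UMIs had 14 Apln, 6 Angpt2 and 7 Adm UMIs, together with 22 of Rgs5, a pericyte gene.

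The calls were also counted without the cells in doubt. Without the 4 cells led by another type, 69 genes were higher in brain and 53 in subcutis, of which 57 and 43 were the same genes as with all cells, and 16 barrier genes and 7 peripheral capillary genes were among them. Rgs5, called higher in brain at 1181 and 647 CPM against 0 UMIs, had 139 and 140 of its brain UMIs in the pair of pericyte-marked cells. Without the cell of most UMIs the counts were 72 and 48. Without brain replicate 2 they were 104 and 83, and without brain replicate 1 they were 51 and 57.

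The 4 cells of the liver libraries were read one by one. Of these, 3 shared Fabp4, Gpihbp1 and Lyve1, and the macrophage-marked cell had 0 UMIs of all 3 genes. The cell of liver replicate 1 had 6796 UMIs and carried genes of liver sinusoids: 29 UMIs of the lectin gene Clec4g, 13 of the nuclease gene Dnase1l3, 9 of the hyaluronan receptor gene Lyve1, 7 of Gpr182, 6 of Fcgr2b, 6 of Bmp2, 5 of Wnt2, 4 of Clec1b and 3 of the scavenger receptor gene Stab2. The 71 brain cells and 5 subcutaneous cells had 0 UMIs of Clec4g, Dnase1l3, Lyve1 and Stab2. This liver cell had 26 UMIs of Fabp4, 21 of Gpihbp1 and 13 of Aqp1 as well, and 0 of Plvap. Its barcode also occurred in liver replicate 3, in a cell of 4083 UMIs with 0 UMIs of the rule genes.

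Liver replicate 3 gave a cell of 2749 UMIs with 24 UMIs of Fabp4, 8 of Gpihbp1 and 6 of Esm1 and 2 of Lyve1, and a cell of 1557 UMIs with 12 of Fabp4, 23 of Gpihbp1 and 3 of Lyve1. The second had 10 UMIs of Pf4, a platelet gene, beside 16 of endothelial markers. The first had 0 UMIs of Clec4g and the second had 1. The cell of liver replicate 2 had 27 UMIs of C1qa, 13 of Clec4f and 9 of Vsig4, genes of liver macrophages, and 3 UMIs over Pecam1 and Cdh5. With 1 or 2 cells a library, none of these values was tested. A library with 1 cell allows a gene at 0 UMIs to be as high as 441 to 2641 CPM at 3 counts.

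**Figure D5:**
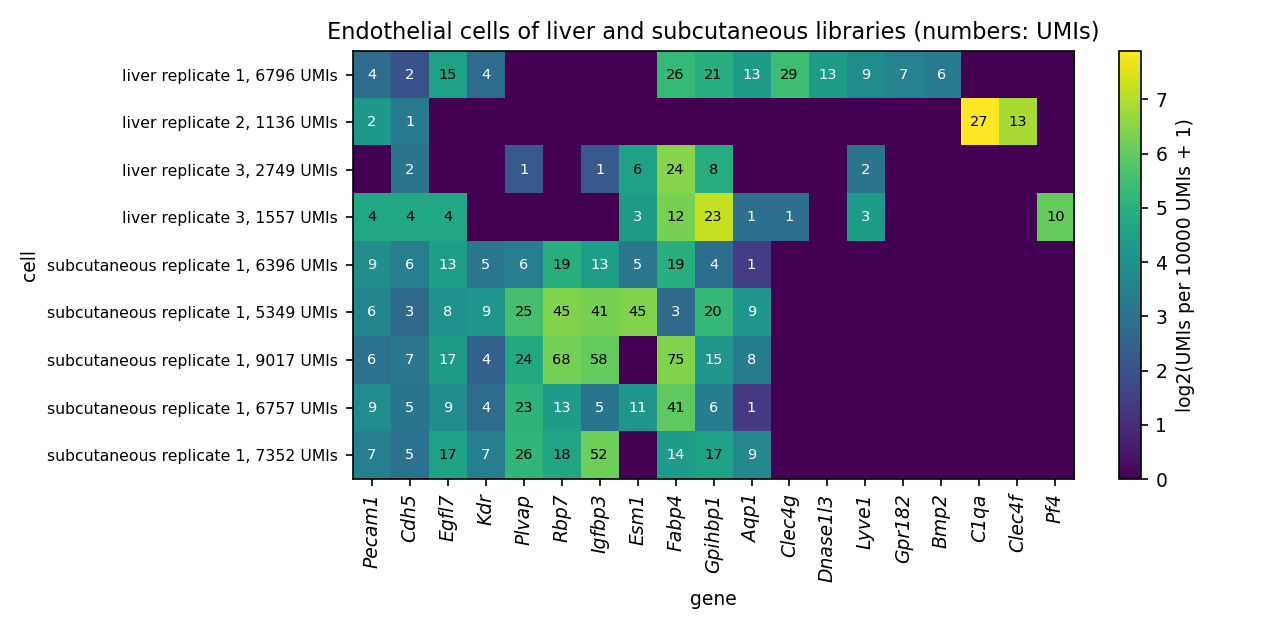
UMIs of 19 genes (x axis) in each of the 4 liver and 5 subcutaneous endothelial cells (y axis, with the cell's total UMIs), coloured by the log2 of UMIs scaled to the cell's depth, with the UMIs printed where above 0. The 5 subcutaneous cells share Plvap, Rbp7, Igfbp3, Fabp4 and Gpihbp1, while Dnase1l3 and Gpr182 stand only in the cell of liver replicate 1 and C1qa and Clec4f in that of liver replicate 2.

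The 5 subcutaneous cells were more alike. Each had UMIs of Plvap, Rbp7, Igfbp3, Fabp4, Gpihbp1, Aqp1, Pecam1, Cdh5, Kdr and Egfl7, and 0 of Slco1a4, Slco1c1, Itm2a and Slc2a1. They varied in Rbp7 from 13 to 68 UMIs, in Igfbp3 from 5 to 58 and in Fabp4 from 3 to 75. A cell of 6396 UMIs stood apart by Gja5 and Gja4, connexins of arterial endothelium, with 11 and 9 UMIs, and by the lowest Plvap (6 UMIs). The cell with 45 UMIs of Esm1 had 3 of Fabp4, the lowest of the 5. All 5 came from 1 library, and the other subcutaneous libraries held 0 endothelial cells.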

How the data were processed

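The values used are UMI counts per gene and cell in filtered matrices that the authors deposited, made with Cell Ranger 3.0.0 per the file headers. The submitters' processing notes also name STAR and mm10. Cells were filtered, summed and thinned in Python 3.11.15 with numpy 2.4.6, scipy 1.17.1 and pandas 2.3.3, and drawn with matplotlib 3.10.9. The 3-library fit used edgeR 4.0.16 (glmQLFit and glmQLFTest, TMM factors, filterByExpr) in R 4.3.3, with DESeq2 1.42.0 as an alternative. Both scripts were first tested on simulated counts.

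The endothelial rule, the gene lists and the comparisons were chosen with earlier results of these data known. Fits between sites had been planned for libraries with at least 10 endothelial cells and at least 2 such libraries a site. Only brain met this, so no planned contrast was fitted. The size rule of 4 times and the fit of the 3 libraries with at least 5 cells were chosen after the data were seen, and the single subcutaneous library leaves that fit 1 residual degree of freedom. Exact intervals are at 95% and cover counting error only, and a count of 0 was set to 3 for lower bounds. Most genes of each list are named by the highest mean level in brain or by the size rule. Others, Emcn and Mfsd2a among them, met neither. Also named are the 12 genes of the highest ratio to other kept cells and those marked in the text as chosen after their values were seen. Genes of the rule were not tested. Of 22056 genes, 21952 were placed in GENCODE M21. RefSeq upstream sequences stop at the start site, so the 50 bases after it were not searched. Alternatives changed the cell rule, the depth, the weights, the filters, the fold and the tool. Doublets were neither called nor removed. The labels do not say which gate the sort used. No batch is named in the labels.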

Additional observations from a re-analysis of the deposited data

How the results depend on the processing

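The 4 cells led by another type, 1 deep brain cell and a single subcutaneous library limit every comparison of genes. The difference in share between brain and the other sites was 0.959 percentage points and ranged from 0.352 to 1.57 when each library was left out in turn. With sites permuted within replicate numbers as a replicate block the value was 0.959 points (exact permutation p = 0.111), and nothing in the labels says that equal numbers mark a shared animal. No paired fit of genes was possible, because only replicate 1 has cells in both brain and subcutis. The summed barrier level in brain was 14.88 on the log2(CPM + 1) scale and 15.35 with each cell weighted equally, against 10.60 in subcutis. Of genes at least 4 times higher, 65 in brain and 54 in subcutis, leaving out a brain library gave 51 to 104 and 57 to 83. The counts were 98 in brain with cells weighted equally, 12 and 23 after thinning, 33 and 23 in cells without eGFP or Mycl UMIs, and 19 and 15 at a fold of 8. They were 30 in subcutis at 30 UMIs a gene and 39 in brain among genes 4 times higher in endothelial cells. Barrier genes among them numbered 4 (thinned) to 18. The edgeR counts of 88 and 67 became 48 and 43 with library totals, 53 and 34 with no filter, 33 and 14 with 0 Tyrobp UMIs, 33 and 11 without eGFP or Mycl UMIs, 53 and 37 without the deepest cell, 30 and 11 after thinning, and 15 and 3 by DESeq2. The log2 ratio of Ifitm3 turned from -0.30 to 0.0189 in cells without eGFP or Mycl UMIs. Thinning and the eGFP and Mycl setting leave fewer UMIs and genes, and the cause of the other shifts was not tested. The planned site contrasts and their alternatives were not run, for lack of libraries.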
